A study of Mus musculus with 42 samples.

Results

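The genes of testicular steroid synthesis and of Leydig cell hormone signalling were examined as 10 members of the 26653 genes listed for each tissue: *Lhcgr*, *Mrap*, *Star*, *Fdx1*, *Cyp11a1*, *Hsd3b1*, *Hsd3b6*, *Cyp17a1*, *Hsd17b3* and *Insl3*. They were chosen by gene symbol for their place in the pathway, with earlier results of these data known, and all 10 were found. In testes, 8 of the 10 were higher in *Tug1*-/- than in wild-type mice, beside 36.4% of the 15143 genes measured there; with both genotypes rescaled to the same total it was 9 of 10, beside 61.3%. With the deposited values, their differences on the log2 scale ran from -0.13 for *Hsd3b6* to 0.58 for *Insl3*. No member was then past a limit of 1.5 times, which 1.17% of all genes passed as higher and 0.753% as lower. At the same total, 2 members were past it as higher, *Insl3* (0.68) and *Lhcgr* (0.59), beside 1.94% of all genes higher and 0.528% lower. Outside testes, the members with a mean of at least 1 FPKM past this limit were *Cyp17a1* in liver and *Mrap* in eyes, prostate and spleen, all higher in the knockout. Under that mean, *Insl3* in prostate (log2 -1.10) and eyes (-1.17) and *Cyp11a1* in heart (-0.81) were past it as lower.

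Leydig cells lie between the seminiferous tubules and make testosterone. Luteinizing hormone from the pituitary binds its receptor on these cells and raises cyclic AMP, cholesterol is then carried into mitochondria and cut to pregnenolone, and a short series of enzymes turns pregnenolone into testosterone. Leydig cells also secrete insulin-like 3, a peptide hormone needed for the descent of the testes, and the Sertoli cells inside the tubules respond to the testosterone that reaches them.

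RNA of 42 samples was sequenced, 22 wild-type and 20 *Tug1*-/-, with 4 wild-type and 3 knockout samples of testes, 3 and 2 of prostate, and 3 and 3 each of heart, liver, spleen, eyes and cultured fibroblasts of mouse embryos (MEFs). The knockout mice carried the Tug1_tm1.1Vlcg allele on both chromosomes, in which a *lacZ* reporter stands in place of the gene body of the long non-coding RNA *Tug1* while the promoter and the first exon remain. The wild-type mice carried both normal *Tug1* alleles and no *lacZ*. All samples were male and on a C57BL/6J background (N3-C57BL/6J) with the neomycin cassette removed. MEFs were primary cultures at passage 2 from male littermate embryos, and the ages of the adult mice are not given in the sources used here. The allele was inherited and not limited to a cell type, so an effect of the deletion in Leydig cells and one in other cells cannot be told apart.

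For every gene the deposited table gives the authors' pooled value of each genotype in FPKM, a level per transcript length and library size, and no value per mouse. The spread between mice and the depth of the libraries are therefore unknown here. The authors' own test statistics and p values in the table were not used, so no difference below carries a test. A difference is given below as log2((knockout + 0.1)/(wild-type + 0.1)) with the values in FPKM, which understates the difference of genes with low values, and genes were counted where the mean of both genotypes was at least 1 FPKM. The summed FPKM of the 14 groups lay between 378014 and 1124495. *Tug1* was at 27.7 FPKM in wild-type and 0.402 FPKM in knockout testes and was lower in the knockout in all 7 tissues. In testes, all 8 spermatid markers were higher than in any other tissue. In liver, *Alb* and *Serpina1c* were listed at 0 in both genotypes, so that a 0 in the table need not mean that a gene was silent.

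With the pseudocount of 0.1, *Insl3* and *Lhcgr* had the highest log2 differences of the members in testes, though with a pseudocount of 1 *Lhcgr* (0.32) came after *Hsd3b1* (0.44) and *Star* (0.39). *Hsd3b1* and *Hsd3b6*, the most abundant 3β-hydroxysteroid dehydrogenase genes in testes, differed in direction, and the sequence upstream of these 4 genes is shown. Of the 10 members, 7 matched the RefSeq promoter table (GRCm38.p6), with 8 promoters. *Star*, *Cyp17a1* and *Mrap* had no entry. The sequences run 5′ to 3′ on the strand of the gene, and capitals mark matches on either strand to short motifs. The core of the site of the steroidogenic regulator SF-1 was searched for as the letters CAAGGNC. The half-site of nuclear receptors was searched for as the letters AGGTCA. For the binding site of the GATA family of regulators the letters searched for were AGATAA. For the core of the TATA box of promoters the letters searched for were TATAA. The SF-1 core and the half-site can overlap. The *Insl3* stretch (chr8:71689102-71689213, plus strand) stops where the GENCODE transcript begins, upstream of the RefSeq start. The other stretches are chr17:88792015-88792164 for *Lhcgr*, chr3:98859795-98859944 for *Hsd3b1* and chr3:98814444-98814593 for *Hsd3b6*, all on the minus strand.
Insl3: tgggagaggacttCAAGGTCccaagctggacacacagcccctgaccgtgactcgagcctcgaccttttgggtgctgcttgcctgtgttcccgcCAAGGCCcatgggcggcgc
Lhcgr: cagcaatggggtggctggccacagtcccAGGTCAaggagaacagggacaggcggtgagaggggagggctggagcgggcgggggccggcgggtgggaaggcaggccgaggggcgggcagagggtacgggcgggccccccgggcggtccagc
Hsd3b1: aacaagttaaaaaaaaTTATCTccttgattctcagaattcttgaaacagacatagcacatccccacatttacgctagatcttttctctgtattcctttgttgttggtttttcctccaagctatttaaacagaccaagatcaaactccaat
Hsd3b6: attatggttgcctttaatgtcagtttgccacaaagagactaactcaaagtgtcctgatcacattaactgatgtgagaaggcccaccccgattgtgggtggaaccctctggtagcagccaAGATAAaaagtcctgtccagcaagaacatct

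*Insl3* held the SF-1 core at 137 and 57 bases before its RefSeq start, and *Lhcgr* held the nuclear receptor half-site at 122 bases before. *Hsd3b1* and *Hsd3b6* each held the GATA site, on opposite strands, at 134 and 31 bases before their starts. Among the other members, the SF-1 core was found in *Fdx1* and the half-site in *Cyp11a1*. *Insl3* also held the TATA core on both strands, overlapping, at 31 and 30 bases before its start, beyond the printed stretch. Of all 32851 promoters of the table, 9.1% held the SF-1 core in the 150 bases before the start, 8.6% the half-site, 5.6% the GATA site and 14.2% the TATA core. A match is a description of the letters in this window, and the RNA data do not show binding.

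The receptor end of the pathway was at low levels. *Lhcgr* (chr17:88716481-88791990, minus strand, GENCODE vM21 on GRCm38), the receptor for luteinizing hormone, was at 1.31 FPKM in wild-type and 1.90 FPKM in knockout testes, a log2 difference of 0.50 (0.32 with a pseudocount of 1). Among the 15143 genes with a mean of at least 1 FPKM in testes, 1.84% had a higher difference. *Mrap* (chr16:90738207-90749785, plus strand), which encodes the accessory protein that carries the adrenocorticotropic hormone receptor to the cell surface, was at 3.04 and 3.79 FPKM, a difference of 0.31. That receptor itself, *Mc2r*, was at 0.0508 FPKM in wild-type and 0.0312 FPKM in knockout testes. In bulk testis RNA, fewer cells of a type and less RNA per cell cannot be told apart, and the same holds for more cells and more RNA.

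Cholesterol entry into mitochondria and its first cut came next. *Star* (chr8:25806555-25815982, plus strand), whose protein moves cholesterol to the inner mitochondrial membrane, was at 20.8 FPKM in wild-type and 27.6 FPKM in knockout testes, or 1.32 times (log2 0.40). *Cyp11a1* (chr9:58006411-58027023, plus strand), the side chain cleavage enzyme, was at 53.2 and 65.9 FPKM, or 1.24 times (log2 0.31). *Cyp11a1* overlaps the gene *Gm17322* on the same strand, which was at 0.203 and 0.258 FPKM. *Fdx1* (chr9:51943306-51963556, minus strand), the ferredoxin that passes electrons to mitochondrial cytochromes, was at 33.0 and 32.5 FPKM. Its difference of -0.02 turned to 0.08 when both genotypes were rescaled to the same total and to 0.04 with median ratio scaling, so no direction can be given for *Fdx1*.

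The microsomal enzymes that lead to testosterone did not all point the same way. *Cyp17a1* (chr19:46667165-46673172, minus strand), the 17α-hydroxylase and lyase that makes androgens out of pregnane steroids, was the most abundant enzyme of the set, at 95.1 FPKM in wild-type and 108 FPKM in knockout testes (log2 0.19). *Hsd17b3* (chr13:64058266-64089230, minus strand), which reduces androstenedione to testosterone, was at 14 and 16.6 FPKM (log2 0.24). *Hsd3b1* (chr3:98852194-98859794, minus strand), a 3β-hydroxysteroid dehydrogenase of gonads and adrenal, was at 24.0 and 32.9 FPKM (log2 0.45). *Hsd3b6* (chr3:98805504-98814443, minus strand), the 3β-hydroxysteroid dehydrogenase typical of adult Leydig cells, was at 50.8 and 46.5 FPKM (log2 -0.13). It was the only member lower in the knockout under each of the scalings tried, by 0.13 with the deposited values, by 0.07 with median ratio scaling and by 0.03 at the same total.

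The 3β-hydroxysteroid dehydrogenase genes are close copies, and the table does not tell how shared reads were divided among them. Over 1122 aligned coding bases, *Hsd3b1* and *Hsd3b6* were identical at 1010, their longest identical run was 72 bases, and of the 1022 windows of the read length stated for the study none was the same in both. *Hsd3b2*, at 7.66 FPKM in wild-type and 7.11 FPKM in knockout testes, was 94.4% identical to *Hsd3b6* and shared 44 such windows with it. How far *Hsd3b1* and *Hsd3b6* differ is shown by coding bases 54 to 143 (chr3:98857822-98857911 and chr3:98810904-98810993, minus strand, GRCm38), in which capitals mark the 18 bases that differ.
Hsd3b1 coding: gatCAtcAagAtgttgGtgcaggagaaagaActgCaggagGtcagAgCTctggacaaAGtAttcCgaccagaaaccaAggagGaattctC
Hsd3b6 coding: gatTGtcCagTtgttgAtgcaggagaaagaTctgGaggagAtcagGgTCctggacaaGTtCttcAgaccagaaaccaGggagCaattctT

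The level of *Hsd3b6* was 2.11 times that of *Hsd3b1* in wild-type and 1.41 times in knockout testes. The sum of *Hsd3b1*, *Hsd3b6* and *Hsd3b2*, which depends less on how reads were divided among the 3 genes, was 82.4 FPKM in wild-type and 86.5 FPKM in the knockout, or 1.05 times.

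*Insl3* (chr8:71689214-71690575, plus strand), the gene of the peptide hormone insulin-like 3, had the highest level of the 10 members in both genotypes. It was at 756 FPKM in wild-type and 1131 FPKM in knockout testes, or 49.6% more (log2 0.58), just inside the limit of 1.5 times. Of the 15143 genes, 1.18% had a higher difference. *Insl3* made up 71.9% of the summed FPKM of the 10 members in wild-type and 77.1% in knockout testes. The sum of the members was 1051 FPKM in wild-type and 1467 FPKM in the knockout (1.40 times), and without *Insl3* it was 295 and 336 FPKM (1.14 times). *Insl3* lies within the span of *Jak3* on the same strand, and reads of the overlap could be given to either gene. *Jak3* was at 3.37 and 3.69 FPKM in testes, far below *Insl3*.

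**Figure D1:**
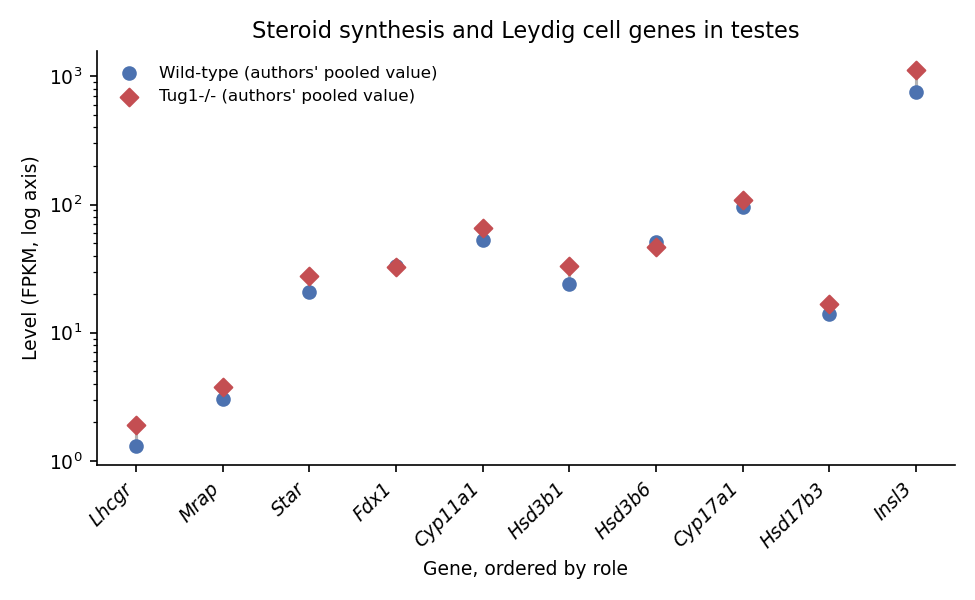
Levels of the 10 genes in testes on a log axis, with genes ordered by role and the authors' pooled value of each genotype as 1 point (no error is available). The pair of points for *Insl3*, at 756 and 1131 FPKM, stands above all others, and the knockout point is the lower one for *Fdx1* and *Hsd3b6*.

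The members were set beside all genes of the same comparison. Of the 15143 genes, 36.4% were higher and 63.6% lower in knockout testes by any amount, while 8 members were higher and 2 lower. Past 1.5 times, 1.17% of all genes were higher and 0.753% lower, and the members gave 0 in either direction. The median difference of the members was 0.31 and that of all genes was -0.06, and 5.86% of all genes lay above the members' median. No test over mice stands behind these counts. The summed FPKM of testes was 728941 in wild-type and 680023 in the knockout. When both genotypes were rescaled to the same total, every difference moved up by about 0.10: the members' median was then 0.41, that of all genes was 0.04, 61.3% of all genes and 9 members were higher by any amount, and *Insl3* (0.68) and *Lhcgr* (0.59) were past 1.5 times beside 1.94% of all genes higher and 0.528% lower. With median ratio scaling, which sets the median of all genes near 0, 9 members were again higher, *Insl3* (0.64) was past the limit and *Lhcgr* (0.56) was not, beside 1.57% higher and 0.594% lower.

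**Figure D2:**
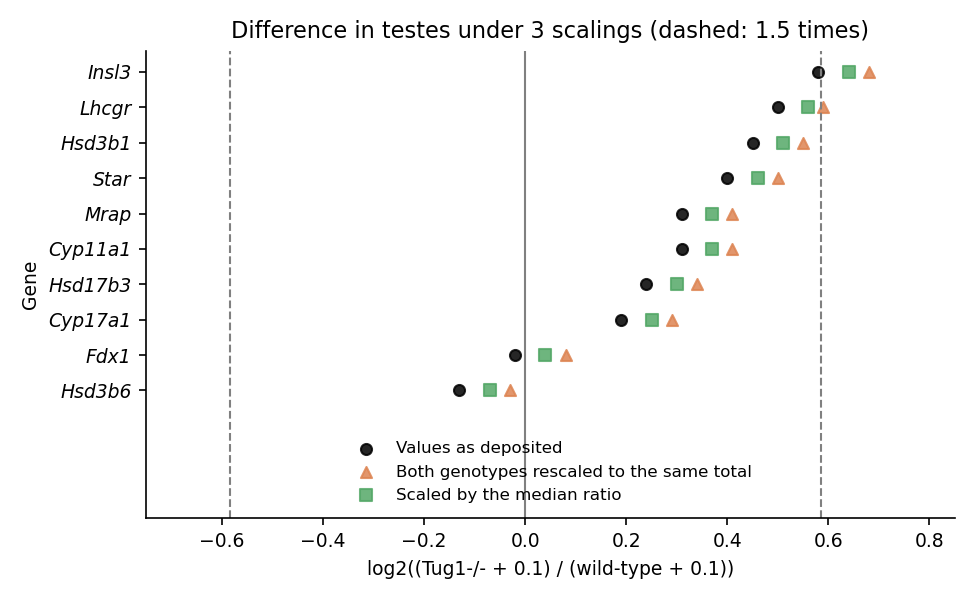
Difference between knockout and wild-type testes for each of the 10 genes, as log2((knockout + 0.1)/(wild-type + 0.1)), with the values as deposited, rescaled to the same total and scaled by the median ratio. Dashed lines mark 1.5 times. *Insl3* crosses the upper line under both rescalings and *Lhcgr* only at the same total, and *Fdx1* changes sign.

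Genes that feed, regulate or follow the pathway were described by their counts, from lists of known pathway genes. In the cholesterol supply list, which holds lipoprotein receptors and cholesterol transporters among others, 6 of 12 genes were higher and 6 lower in knockout testes, with a median of 0.09 and none past 1.5 times. Its largest difference was that of *Stard4*, a soluble cholesterol carrier, at 3.29 FPKM in wild-type and 2.38 FPKM in the knockout (log2 -0.45). The electron donor list holds *Fdxr*, *Por*, *Cyb5*, *Cyb5r3* and *H6pd*, not all of which pass electrons to steroidogenic cytochromes themselves. Of these 5 genes, 4 were higher and 1 lower, with a median of 0.21. *Cyb5r3*, a cytochrome b5 reductase, had the largest difference (0.33). In the luteinizing hormone signalling list, 7 of 9 genes reached a mean of 1 FPKM, 3 higher and 4 lower (median -0.06). Those below it were *Mrap2* and *Mc2r*, the gene of the adrenocorticotropic hormone receptor, neither of which encodes a receptor for luteinizing hormone. *Gnas*, the stimulatory G protein gene, had the largest difference of the list (0.22). The median of this list was that of all genes. At the same total, the counts of genes higher and lower became 8 and 4 for cholesterol supply, 5 and 0 for the electron donors and 5 and 2 for luteinizing hormone signalling. Of all genes, 36.4% were higher and 63.6% lower as deposited, and 61.3% and 38.7% at the same total.

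Of 9 transcription regulators of steroidogenic genes, 7 reached a mean of 1 FPKM, 4 higher and 3 lower (median 0.07). The largest difference was that of *Nr4a1*, an orphan nuclear receptor induced by luteinizing hormone, at 22.6 FPKM in wild-type and 18.5 FPKM in the knockout (log2 -0.29). *Nr5a1*, which encodes SF-1, was at 12.3 and 14.2 FPKM (log2 0.20). Of 24 further steroid enzymes 23 were found and 10 reached a mean of 1 FPKM, 5 higher and 5 lower (median 0.01). Of these, 1 was past 1.5 times, beside 1.17% of all genes higher and 0.753% lower past this limit. It was *Cyp21a1*, the 21-hydroxylase of adrenal steroid synthesis, at 1.66 FPKM in wild-type and 2.91 FPKM in knockout testes (log2 0.77). At this low level it was not past the limit with a pseudocount of 1, and it was not counted with a minimum mean of 3 FPKM. Of the other adrenal markers in testes, *Cyp11b1* was at 0.586 and 0.606 FPKM, *Cyp11b2* at 0.197 and 0.200 FPKM and *Akr1b7* at 0.177 and 0.242 FPKM. Of 9 hormone receptors and androgen-responsive testis genes, 7 reached a mean of 1 FPKM, 6 higher and 1 lower (median 0.18). The prolactin receptor gene *Prlr* had the largest difference, with 4.68 FPKM in wild-type and 6.68 FPKM in the knockout (log2 0.50). *Rxfp2*, the receptor for insulin-like 3, was at 13.5 and 13.4 FPKM. Beside the counts as deposited, 36.4% of all genes were higher and 63.6% lower. At the same total, 6 of the 7 regulators, 7 of the 10 further enzymes and all 7 genes of the receptor list were higher, beside 61.3% of all genes.

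Markers of the other cell types of the testis were read in the same values, since bulk testis RNA holds all of them. In the Leydig cell list, which holds the 10 members and 5 more genes, 14 reached a mean of 1 FPKM, of which 11 were higher and 3 lower (median 0.28). Of the genes added to the members, *Vcam1*, an adhesion molecule, was at 15.0 and 23.0 FPKM (log2 0.61, past 1.5 times), *Nr5a1* had a difference of 0.20, *Ptgds*, a prostaglandin synthase, was at 312 and 305 FPKM (log2 -0.03), and *Sult1e1*, an estrogen sulfotransferase, was at 9.84 and 10.1 FPKM (log2 0.03). The median of these 4 genes was 0.12, so the median of the list rests mostly on the members. Of 14 Sertoli cell markers, 13 reached a mean of 1 FPKM and all 13 were higher, with a median of 0.29 and a summed level of 1041 FPKM in wild-type and 1303 FPKM in knockout testes. Examples are *Cst12* (143 and 189 FPKM) and *Sox9* (3.71 and 4.91 FPKM), the regulator of Sertoli cell fate. All 5 peritubular myoid markers were also higher (median 0.14), as were the 5 macrophage markers (median 0.34) and the 2 endothelial markers (median 0.25) that reached 1 FPKM. These somatic counts were the same under each scaling, except that the Leydig cell list had 13 higher and 1 lower at the same total and with median ratio scaling. Of all genes, 36.4% were higher as deposited, 61.3% at the same total and 50.0% with median ratio scaling. The Sertoli cell list shares *Rhox5*, *Fshr* and *Inha* with the receptor list.

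The germ cell lists had lower medians. Spermatogonial markers had a median of 0.01, with 5 of 7 higher (all 7 at the same total), and spermatocyte markers had a median of 0.03, with 4 of 7 higher (6 at the same total). Beside these, 36.4% of all genes were higher and 63.6% lower as deposited, and 61.3% and 38.7% at the same total. All 8 spermatid markers were lower in the knockout with the deposited values and with median ratio scaling, and 6 of 8 at the same total (median -0.19, -0.13 and -0.09). Their sum was 40956 FPKM in wild-type and 35136 FPKM in knockout testes, or 5.62% and 5.17% of the total. *Prm2*, one of the protamines that pack sperm DNA, had the largest difference among them, at 12141 and 9957 FPKM (log2 -0.29). The part that cell composition had in the members' higher levels was not tested.

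**Figure D3:**
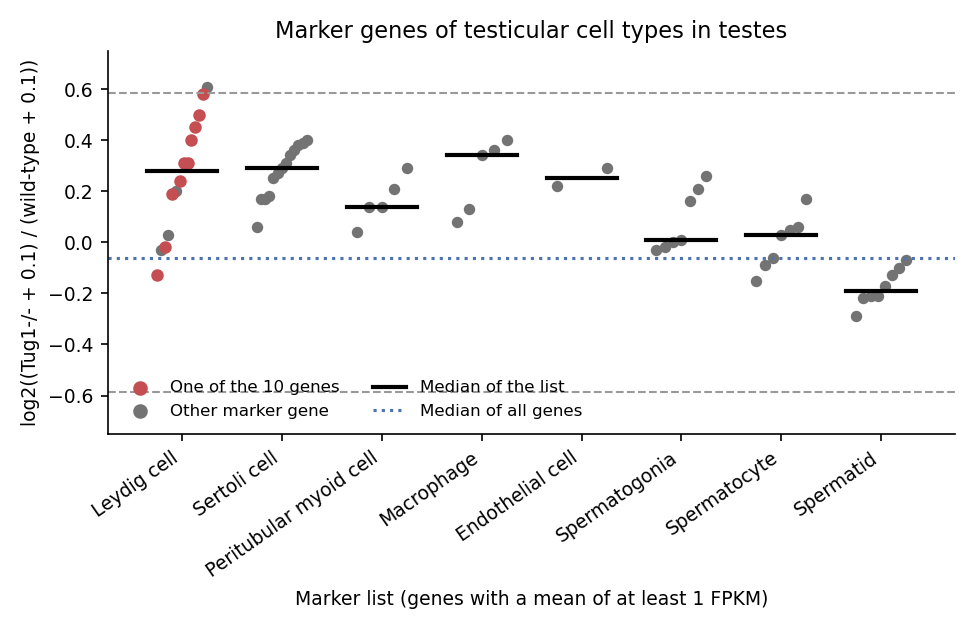
Difference between knockout and wild-type testes of marker genes with a mean of at least 1 FPKM, by cell type, as log2((knockout + 0.1)/(wild-type + 0.1)). Red points are the 10 genes, grey points other markers, black bars list medians, the dotted line the median of all genes and dashed lines 1.5 times. With these deposited values the points of the Sertoli cell list all lie above 0 and those of the spermatid list all lie below it, while at the same total 2 spermatid markers turn to higher.

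RNA of tissue next to the testis was also looked for. None of the 4 epididymal markers reached a mean of 1 FPKM in testes, but their sum was 0.168 FPKM in wild-type and 1.10 FPKM in the knockout. *Lcn5* was at 0 and 0.833 FPKM, *Crisp1* at 0.141 and 0.187 FPKM and *Adam7* at 0.0270 and 0.0847 FPKM. *Lcn8* was listed at 0 in both. Of the adipocyte markers 1 of 5 reached it, *Adipoq* at 5.77 and 5.55 FPKM. The sum of the list was 7.21 FPKM in wild-type and 7.55 FPKM in the knockout. Under that mean, *Plin1* was at 0.579 and 0.540 FPKM and *Fabp4* at 0.498 and 0.896 FPKM. *Cidec* was at 0.277 and 0.357 FPKM and *Lep* at 0.0855 and 0.208 FPKM. The part of such tissue in the testes samples was not tested. Neither fetal Leydig cell marker reached 1 FPKM, with *Dlk1* at 0.635 and 0.730 FPKM.

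Across tissues, 7 of the 10 members had their highest level in testes in both genotypes, and this held when every group was rescaled to the same total. *Hsd3b1* was at most 0.0305 FPKM outside testes, *Hsd3b6* at most 0.0515 FPKM and *Hsd17b3* at most 0.0102 FPKM. *Lhcgr* was at most 0.0468 FPKM and was listed at 0 in liver and MEFs. *Cyp11a1* was highest outside testes in spleen, at 0.782 FPKM in wild-type and 0.529 FPKM in knockout mice, and *Insl3* in heart, at 0.593 and 0.403 FPKM. *Jak3*, within whose span *Insl3* lies, was at 7.38 and 7.83 FPKM in heart. None of these 6 genes reached 1 FPKM in a tissue other than testes.

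The remaining 4 members were also present elsewhere. *Star* was highest in spleen, at 41.4 FPKM in wild-type and 35.7 FPKM in the knockout, above its level in testes in both genotypes. In that tissue *Cyp17a1* was at 0.0812 and 0.0252 FPKM, and *Hsd3b1*, *Hsd3b6* and *Hsd17b3* were listed at 0. Of the adrenal markers in spleen, *Cyp21a1* was at 4.34 and 5.36 FPKM and *Akr1b7* at 4.55 and 5.33 FPKM, while *Cyp11b1* and *Cyp11b2* were listed at 0. *Fdx1* was highest in liver, at 131 and 132 FPKM, and was above 1 FPKM in every tissue, from 6.01 FPKM in knockout spleen upward. *Mrap* was also highest in liver, at 55.4 and 45.6 FPKM, with heart next, at 9.35 and 9.74 FPKM.

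**Figure D4:**
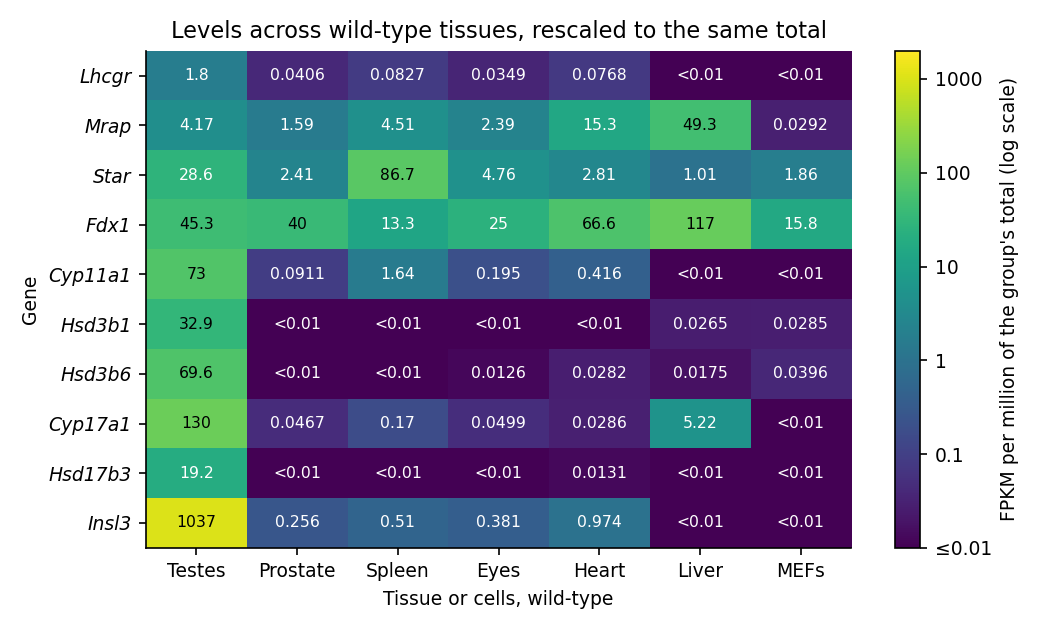
Levels of the 10 genes in wild-type testes, prostate, spleen, eyes, heart, liver and MEFs, as FPKM rescaled to the same total in each group, on a logarithmic colour scale with the value in each cell. The testes column holds the highest value for 7 genes, *Star* is highest in spleen (86.7), and *Mrap* (49.3) and *Fdx1* (117) are highest in liver.

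In liver, *Cyp17a1* had the largest difference of any member in any tissue among those with a mean of at least 1 FPKM. It was at 5.87 FPKM in wild-type and 27.9 FPKM in knockout liver, or 4.75 times (log2 2.23), and 5.22 and 27.6 when each group was rescaled to the same total. It was the only one of the 4 measured members past 1.5 times there, where 2.55% of 11711 genes were higher and 2.25% lower past this limit (4.93% and 1.21% at the same total). *Cyp11a1* was at 0.00675 and 0.0210 FPKM in liver, *Hsd3b1* at 0.0298 and 0.0305 FPKM, and *Hsd17b3* was listed at 0, which in this tissue cannot be read as absence. Other 3β-hydroxysteroid dehydrogenase genes were present in liver. *Hsd3b2* was at 42.3 FPKM in wild-type and 27.5 FPKM in the knockout (log2 -0.62) and *Hsd3b3* at 293 and 247 FPKM (log2 -0.24). *Hsd3b5* was at 226 and 167 FPKM (log2 -0.44) and *Hsd3b7* at 579 and 427 FPKM (log2 -0.44). These differences are as deposited. At the same total, differences in liver moved up by about 0.16, so these were then smaller in size. Of the adrenal markers, *Mc2r* and *Cyp11b2* were listed at 0 in liver and *Cyp11b1* at 0 and 0.00566 FPKM, while *Cyp21a1* was at 1.30 and 1.64 FPKM.

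*Mrap* was past 1.5 times in 3 tissues, each time higher in the knockout. It was each time the only member past the limit among those with a mean of at least 1 FPKM. In eyes it was at 0.902 FPKM in wild-type and 3.21 FPKM in the knockout (log2 1.72), where 2.64% of genes were higher and 0.867% lower past the limit. In prostate it was at 0.965 and 2.00 FPKM (log2 0.98), beside 2.40% higher and 0.682% lower. In spleen it was at 2.15 and 3.38 FPKM (log2 0.63), beside 4.91% higher and 1.10% lower. Prostate rests on 2 knockout samples, and with a pseudocount of 1 the difference in spleen was 0.47, under the limit. In eyes and prostate the wild-type value was under 1 FPKM, so *Mrap* met the minimum mean there only through its knockout value. With a minimum mean of 3 FPKM it was not counted in any of the 3 tissues. In heart, where 0.874% of genes were higher and 1.44% lower past the limit (0.622% and 2.02% at the same total), no member with a mean of at least 1 FPKM was past it. The same held for MEFs, with 0.975% higher and 2.20% lower, and 1.66% lower at the same total.

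*Mrap* is known as a gene of fat cells as well as of the adrenal cortex, and adipocyte markers were therefore set beside it. In eyes all 5 adipocyte markers were higher in the knockout, with *Adipoq*, the adiponectin gene, at 7.31 and 21.8 FPKM and *Cidec*, a lipid droplet protein gene, at 5.54 and 24.7 FPKM. In prostate all 5 were higher as well, with *Adipoq* at 3.93 and 15.5 FPKM and *Fabp4*, a fatty acid binding protein gene, at 33.9 and 105 FPKM. In heart all 5 were lower, with *Adipoq* at 21.0 and 9.23 FPKM, and *Mrap* was at 9.35 and 9.74 FPKM. In spleen, where *Mrap* was also higher, *Adipoq* was at 0.599 and 0.217 FPKM and *Fabp4* at 14.7 and 21.3 FPKM. *Mrap* and all adipocyte markers thus lay on the same side in eyes and prostate, while in heart *Mrap* lay near 0 (0.06 as deposited and -0.02 at the same total). In liver, where *Mrap* was highest (55.4 and 45.6 FPKM, log2 -0.28), *Adipoq* was at 0.0240 FPKM in wild-type and listed at 0 in the knockout, *Plin1* and *Lep* were listed at 0 in both, and *Fabp4* was at 21.1 and 27.6 FPKM. The part of adipose tissue in the samples was not tested.

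**Figure D5:**
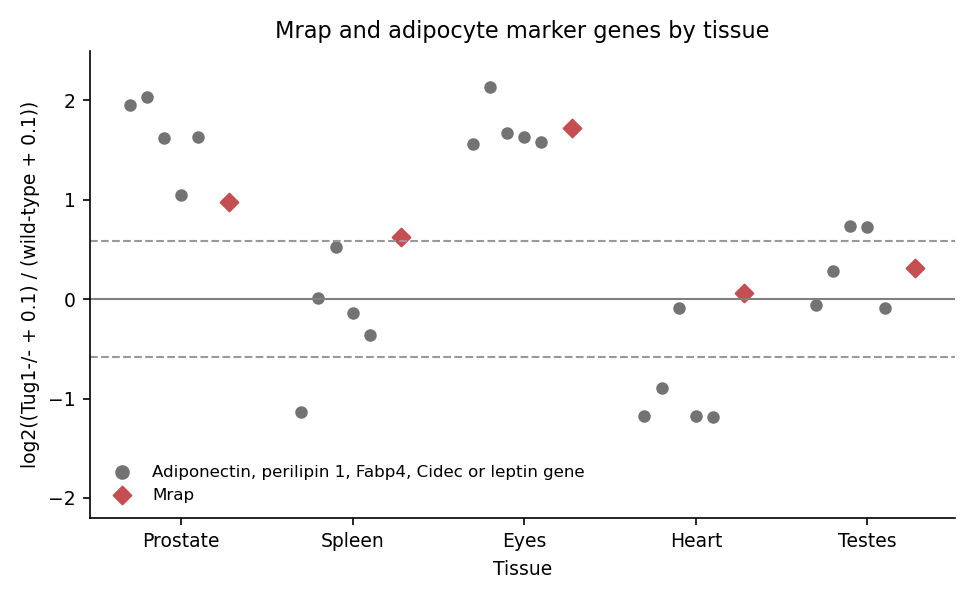
Difference between knockout and wild-type for *Mrap* (red) and for 5 adipocyte marker genes (grey, in alphabetical order of symbol from left to right) in prostate, spleen, eyes, heart and testes, as log2((knockout + 0.1)/(wild-type + 0.1)), with dashed lines at 1.5 times. In eyes and prostate all points lie above the upper dashed line, and in heart *Mrap* lies near 0 with the grey points below 0.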

How the data were processed

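Polyadenylated RNA of 42 samples had been sequenced from libraries of a kit that does not keep strand. Per the labels, reads had been processed by the authors with CASAVA 1.8.2, TopHat2 and Cuffdiff on mm10, while the methods of the paper describe another route for its own calls. The authors' deposited table holds 1 pooled FPKM value per gene, genotype and tissue; the header names no unit, which was taken from the layout. It also holds the authors' fold change, test statistic, p-value and q-value, which were not used here. Of its 8 comparisons, 1 has no sample in the labels and was not used here.

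Groups were taken from the labels. Differences were computed as log2 with a pseudocount of 0.1, a limit of 1.5 times and a minimum mean of 1 FPKM. With 1 pooled value per group and the authors' p-values left aside, no test was made here, and replicate error and depth per sample are unknown. The members and lists were chosen with earlier results of these data known. All 10 members are named, with every gene of a list past the limit or else its gene of largest difference; other list genes named as examples were chosen after their values had been seen. The 5 genes most like the members were those with the smallest root mean square difference from the median profile over 14 groups. Pseudocounts of 1 and 0.01, rescaling to the same total, median ratio scaling, limits of 2 times and of a ratio of 5 to 4, no minimum and a minimum of 3 FPKM were tried. Some genes of the lists are not reported here by name. Python 3.11.15, numpy 2.4.6, pandas 2.3.3, matplotlib 3.10.9 and Biopython 1.88 were used.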

Additional observations from a re-analysis of the deposited data

How the results depend on the processing

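The count of members higher in knockout testes (8), the members' median difference, the count of members lower past the limit (0) and the count of members highest in testes (7) kept their direction and size class under every setting tried for them, with the median between 0.28 and 0.41 and the count higher between 8 and 9. A pseudocount cannot change the sign of a difference, and both rescalings moved every member's difference in testes up. The count higher could therefore only stay or rise under these settings. The share of all genes higher rose as well, from 36.4% as deposited to 50.0% with median ratio scaling and 61.3% at the same total. The count of members past the limit in testes, 0 with the deposited values, was 2 at the same total, 1 with median ratio scaling and 4 at a lower limit, a ratio of 5 to 4. The share of all genes past this lower limit was not computed, so counts at this limit have no background beside them. Of the 4 members, *Star* had the smallest difference (0.40), and 3.22% of all genes in testes had a higher one. The count in prostate, 1, was 0 at 2 times and with a minimum mean of 3, and 2 without a minimum. That in spleen, 1, was 0 with a pseudocount of 1, at 2 times and with a minimum mean of 3. That in eyes, 1, was 2 without a minimum and 0 with a minimum mean of 3, and that in heart, 0, was 1 without a minimum. The members added without a minimum were *Insl3* in prostate and eyes and *Cyp11a1* in heart, all lower in the knockout. At the lower limit, cholesterol supply gave 3 genes in place of 0, electron donors 1 in place of 0, other steroid enzymes 2 in place of 1, and hormone receptors and androgen-responsive testis genes 2 in place of 0. Other steroid enzymes gave 0 with a pseudocount of 1, at 2 times and with a minimum mean of 3. Hormone receptors and androgen-responsive testis genes gave 1 at the same total and 1 without a minimum. Beyond the settings' own construction (another limit, more or fewer genes counted), the cause was not tested.

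No paired analysis was possible because the deposited columns carry 1 pooled value per genotype and no value per replicate, so no replicate was left out either. The values used here carry no error between mice and no depth, and the authors' own test columns were not used, so no difference was set against the spread between mice. Close copies (the *Hsd3b* genes) and overlapping genes (*Insl3* with *Jak3*, *Cyp11a1* with *Gm17322*) rest on how reads were divided.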

Other observations

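Genes of androgen response in prostate were read as a further tissue that testosterone reaches. Of 8 such genes, *Pbsn*, the probasin gene and the most abundant, was at 25020 FPKM in wild-type and 21141 FPKM in knockout prostate (log2 -0.24). *Fkbp5*, a co-chaperone of steroid receptors, was at 12.4 and 22.1 FPKM (log2 0.83), and *Msmb*, a secreted protein gene, was at 4.58 and 7.90 FPKM (log2 0.77), both past 1.5 times. These 3 genes did not lie on 1 side. The prostate values pool 2 knockout samples, and all 5 adipocyte markers were higher in the same knockout group.

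The 5 genes whose profile over the 14 groups of tissue and genotype was most like the median profile of the members were *Gm101*, *Tdrd12*, *Rnf138rt1*, *Defb45* and *4930412D23Rik*, out of 15133 candidates, with a root mean square difference of 0.27 to 0.28 on the log2 scale and a Pearson r of 0.995 each. The groups share the tissues, so this r mainly sets testes against the other tissues. Not every member followed the median profile: r was 0.135 for *Mrap*, 0.228 for *Fdx1* and 0.592 for *Star*, and at most 0.996, for *Hsd17b3*. *Defb45* was at 19.0 FPKM in wild-type and 25.8 FPKM in knockout testes (log2 0.44). *Rnf138rt1* was at 19.8 and 22.5 FPKM (log2 0.18) and *Gm101* at 24.1 and 22.1 FPKM (log2 -0.13). *4930412D23Rik* was at 18.4 and 19.5 FPKM (log2 0.09) and *Tdrd12* at 29.3 and 28.5 FPKM (log2 -0.04). These testes values were part of the profiles by which the 5 genes were chosen, so they only describe these genes. Likeness over whole tissues does not show in which cells of the testis a gene is expressed.

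The *lacZ* reporter, which replaces *Tug1*, was at 54.3 FPKM in knockout testes, above its level in each of the other knockout groups, of which heart had 8.18 FPKM and liver 0.355 FPKM.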
